A study of Homo sapiens with 9 samples.

Results

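Complement genes were followed through knockdown of the 2 polyol pathway enzymes in A549 cells, a long-established line grown from a human lung adenocarcinoma. The genes were chosen by name: the rows of the deposited count table whose Ensembl IDs carry the symbols C3, C5, C1R, C1S, CFB, CFI, C4BPA, C4BPB and CD55. All 9 had a single matching ID, among 57905 IDs in the table. The control cells are called plko in the titles and scrambled controls in the treatment label, and 3 libraries hold them. Another 3 libraries come from cells with a short hairpin RNA (shRNA, which directs degradation of a matching transcript) against AKR1B1, and 3 from cells with an shRNA against SORD. All cells were grown with 5% serum. Apart from plko in the control titles, no label names a vector, its promoter or the hairpin sequence. Each target has 1 shRNA label, so a hairpin's own effects and those of its target cannot be told apart. Nothing says whether the replicates of a group were separate transductions, so the spread behind each p-value is that of these libraries and may be technical.

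Complement is a cascade of plasma proteins that marks cells and particles for removal. In the classical pathway the serine proteases C1r and C1s, bound to the recognition protein C1q, cleave C4 and C2. In the alternative pathway factor B joins activated C3 and is cut by factor D. Both routes build enzymes that cleave C3 and then C5, whose larger fragment starts the membrane attack complex. Factor I, a protease, inactivates the active fragments of C3 and C4 with the help of cofactors such as C4b-binding protein and CD46, while CD55 takes the cleaving enzymes apart on the cell surface. The liver makes most circulating complement, and lung epithelium is among the other sources.

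The knockdowns were visible in their targets. AKR1B1, the enzyme that turns glucose into sorbitol, stood at 10.9% of the control mean with shAKR1B1, and SORD, which turns sorbitol into fructose, at 20.1% with shSORD. Each was also lower with the other hairpin (AKR1B1 at 75.1% of control with shSORD, SORD at 71.1% with shAKR1B1). Total counts ranged from 32436524 to 43044456 per library, and levels are given as CPM, counts per 1000000 of the library size scaled by the trimmed mean of M values (TMM). Keratins KRT8 and KRT18 and the other epithelial and A549 markers were all measured (summed level of the 10 markers 22124.2 to 31990.0 CPM over the 9 libraries). Of 10 leukocyte and macrophage markers, 7 had at most 10 counts in any library, with CD3E at 0 throughout, PTPRC at 0 to 3 counts and CD163 at 0 to 1. The others were CD14 at 111 to 351 counts, LYZ at 1 to 27 and FCER1G at 0 to 12. The 5 endothelial markers that matched an ID had at most 10 counts each. In bulk RNA, fewer cells of a type and less RNA per cell cannot be told apart.

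Of the 9 complement genes, 8 passed the expression filter and were tested with edgeR's quasi-likelihood test over 16916 genes, and C4BPB did not pass. "Rose", "fell", "higher" and "lower" refer to adjusted p under 0.05 (Benjamini-Hochberg over all tested genes). With shAKR1B1 5 of the 8 rose and 2 fell (median log2 fold change 1.2), where 27.8% of all tested genes rose and 29.6% fell (median -0.00). With shSORD all 8 rose (median 1.17), where 27.5% of all tested genes rose and 29% fell (median -0.00). Both comparisons use the same 3 control libraries. The genes were chosen with earlier results of these data known, so the shares describe them and are not a test. Changes of at least 2-fold were 4 rises in each comparison, against 8.45% of all tested genes with shAKR1B1 and 8.02% with shSORD. CFB, C5, CFI and C4BPA made up these 4 in both.

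**Figure D1:**
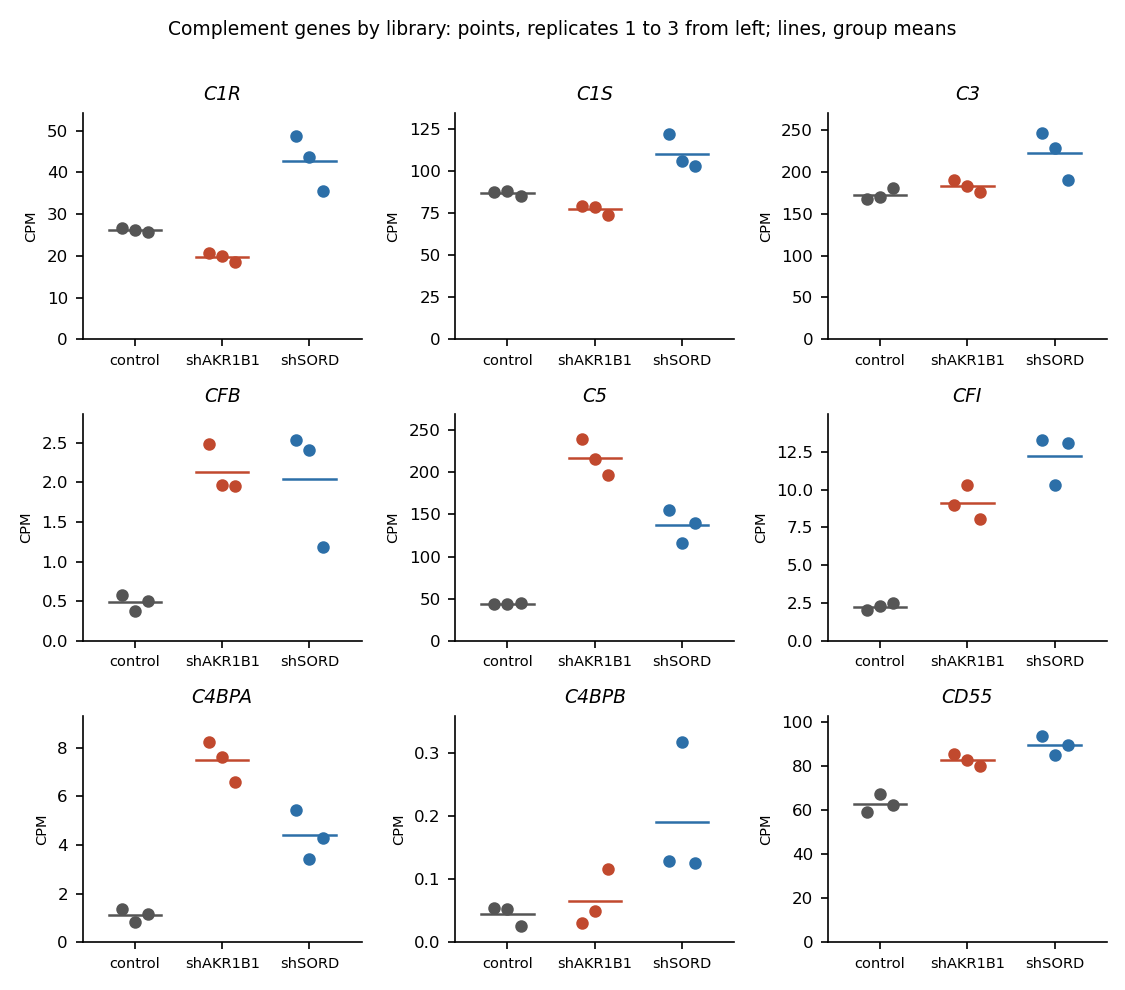
Level of each of the 9 complement genes in CPM (linear axes from 0) in the 3 control, 3 shAKR1B1 and 3 shSORD libraries, with 1 point per library and a line at each group mean. C5, CFI, C4BPA and CFB sit above their highest control library in every knockdown library, C1R and C1S sit below control with shAKR1B1 and above it with shSORD, and C4BPB stays under 0.32 CPM throughout.

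The proteases of the first classical step moved in opposite directions in the knockdowns. C1R (ENSG00000159403, chromosome 12), whose product activates itself and then C1s, was at 26.7, 26.3 and 25.7 CPM in control replicates 1, 2 and 3. It was at 20.8, 20 and 18.5 CPM with shAKR1B1 and at 48.8, 43.8 and 35.6 CPM with shSORD. All shAKR1B1 libraries were below, and all shSORD libraries above, the control range. Across all tested genes, 33.5% had groups separated upward and 35.7% downward with shAKR1B1, and 29.1% upward with shSORD. C1R fell with shAKR1B1 (log2 fold change -0.41, SE 0.0972, adjusted p = 0.0022) and rose 1.63-fold with shSORD (0.70, SE 0.0941, adjusted p = 1.74e-05). C1S (ENSG00000182326), the neighbouring gene for the protease that cuts C4 and C2, was at 87.3, 87.9 and 85.1 CPM in control, 79.0, 78.7 and 73.8 CPM with shAKR1B1 and 122.1, 105.8 and 102.6 CPM with shSORD. Its groups did not overlap either. It rose 1.27-fold with shSORD (log2 fold change 0.34, SE 0.0653, adjusted p = 0.000395). Its fall with shAKR1B1 was small (-0.17, SE 0.0657, adjusted p = 0.0389) and passed in 7 of 17 alternative fits, with adjusted p between 0.0028 and 0.171. It was lost without any 1 of the control or shAKR1B1 replicates (adjusted p 0.0624 to 0.141).

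Per kilobase of exon, C1S was more abundant than C1R in every library, by a factor that differed between groups. The ratio of C1S to C1R was 3.01 ± 0.0338 in control (SD, n = 3), 3.56 ± 0.0963 with shAKR1B1 and 2.37 ± 0.227 with shSORD. The 3 ranges did not overlap (2.98 to 3.05, 3.45 to 3.64 and 2.20 to 2.63), so C1R moved further than C1S in each knockdown. With the longest coding sequence as the length the ratios were 3.46, 4.09 and 2.72. Exons of C1R share 11.4% of their bases with C1RL on the same strand and those of C1S 3.54% with EMG1, and reads there may have been left uncounted.

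Fibroblasts also express C1R and C1S, and their markers were measured beside them. The summed level of 8 such markers was 16.2 to 17.8 CPM in control, 9.23 to 10.7 CPM with shAKR1B1 and 35.4 to 56.9 CPM with shSORD. Of the 6 tested, 5 rose and 0 fell with shSORD, against 27.5% up and 29% down over the 16916 genes. With shAKR1B1 1 rose and 2 fell, against 27.8% up and 29.6% down. The 5 that rose with shSORD were COL1A1, COL1A2, COL3A1, LUM and PDGFRB. COL1A1 held most of the sum (31.7, 46.0 and 31.4 CPM in shSORD replicates 1, 2 and 3). THY1, the other tested marker, was below control in every shSORD library but did not pass (log2 fold change -0.45, adjusted p = 0.0644). It fell with shAKR1B1 (-1.80, adjusted p = 1.27e-05). COL1A2, COL3A1, LUM and PDGFRB passed the expression filter through the shSORD libraries, which favours rises with shSORD for them. DCN, a defining fibroblast proteoglycan, had 0 to 4 counts in any library. The part of these markers in the C1R and C1S values was not tested.

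C3 was abundant in all groups, and its level per kilobase of exon was the highest of the 9 in control (the third per kilobase of coding sequence). C3 (ENSG00000125730, chromosome 19), the protein on which all complement pathways converge, was at 167.3, 170.7 and 181.3 CPM in control and at 190.6, 183.1 and 176.1 CPM with shAKR1B1. These ranges overlapped, and C3 did not pass the test (log2 fold change 0.08, SE 0.0768, adjusted p = 0.379), although it did in a fit of those 2 groups alone (0.10, adjusted p = 0.037). With shSORD it was at 247.1, 229.4 and 191.2 CPM, all above control, and rose 1.29-fold (0.36, SE 0.0767, adjusted p = 0.000967). 

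Factor B rose from a low level in both comparisons with control. CFB (ENSG00000243649, chromosome 6), the protease component of the alternative C3 convertase, had 14 to 21 counts in a control library and at most 84 and 99 in the libraries of shAKR1B1 and shSORD. Its level was 0.58, 0.371 and 0.509 CPM in control, 2.48, 1.97 and 1.95 CPM with shAKR1B1 and 2.54, 2.41 and 1.18 CPM with shSORD. shSORD replicate 3 was the lowest knockdown library, and still above every control library. CFB rose 4.34-fold with shAKR1B1 (log2 fold change 2.12, SE 0.296, adjusted p = 2.31e-05) and 4.18-fold with shSORD (2.06, SE 0.296, adjusted p = 3.32e-05). Of its exon bases, 45.5% lie in exons of C2 or of a gene that reads through from C2 into CFB, and that read-through gene has 0 counts in all libraries. If reads in shared exons were left uncounted, the CFB level is understated, in a way that applies to all groups. The ratio of C3 to CFB per kilobase was 220.9 ± 51.8 in control, 52.0 ± 5.16 with shAKR1B1 and 70.9 ± 22.9 with shSORD (SD, n = 3).

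In CPM, C5 rose by more than any other of the 9 genes. C5 (ENSG00000106804, chromosome 9), the precursor of the anaphylatoxin C5a and of the fragment that seeds the membrane attack complex, was at 43.8, 43.7 and 44.4 CPM in control. It was at 239.2, 216.2 and 196.6 CPM with shAKR1B1 and at 155.3, 116.4 and 140.1 CPM with shSORD. The 3 groups did not overlap. C5 rose 4.94-fold with shAKR1B1 (log2 fold change 2.30, SE 0.0945, adjusted p = 5.64e-11) and 3.12-fold with shSORD (1.64, SE 0.0932, adjusted p = 2.84e-09). The order of C3 and C5 per length was reversed with shAKR1B1: the ratio of C3 to C5 was 3.00 to 3.20 in control, 0.625 to 0.703 with shAKR1B1 and 1.07 to 1.55 with shSORD.

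Among the regulators, factor I and the alpha chain of C4b-binding protein rose several-fold. CFI (ENSG00000205403, chromosome 4) was at 2.02, 2.31 and 2.47 CPM in control, 8.97, 10.3 and 8.03 CPM with shAKR1B1 and 13.3, 10.3 and 13.1 CPM with shSORD. Both knockdowns were wholly above control. CFI rose 4.01-fold with shAKR1B1 (log2 fold change 2.00, SE 0.141, adjusted p = 1.82e-08) and 5.37-fold with shSORD (2.43, SE 0.138, adjusted p = 2.82e-09). C4BPA (ENSG00000123838, chromosome 1), the chain that carries the C4b binding sites, was at 1.38, 0.822 and 1.15 CPM in control, 8.24, 7.6 and 6.59 CPM with shAKR1B1 and 5.44, 3.44 and 4.29 CPM with shSORD. The 3 groups did not overlap. It rose 6.68-fold with shAKR1B1 (2.74, SE 0.193, adjusted p = 1.84e-08), the largest fold among the 8 tested, and 3.92-fold with shSORD (1.97, SE 0.202, adjusted p = 1.22e-06).

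The beta chain of C4b-binding protein stayed near the limit of detection. C4BPB (ENSG00000123843), which lies beside C4BPA on chromosome 1 and whose product binds protein S, had 2, 2 and 1 counts in control replicates 1, 2 and 3. The shAKR1B1 replicates had 1, 2 and 5 counts, and the shSORD replicates 5, 13 and 5. In CPM the shSORD libraries (up to 0.317) all lay above those with shAKR1B1 (0.0306 to 0.116) and those of control (0.0254 to 0.0552), although the raw counts of the knockdowns met at 5. Fitted without the expression filter, its log2 fold change was 2.03 with shSORD (SE 0.752, adjusted p = 0.0244) and 0.58 with shAKR1B1 (SE 0.908, adjusted p = 0.691). With so few counts the sizes are poorly determined. With shAKR1B1 the fit without the filter gave CFB an adjusted p of 7.75e-20 (2.31e-05 with the filter) and C3 0.492 (0.379). Its p-values are therefore not comparable with those of the filtered fit.

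CD55 showed the smallest rise of the regulators tested among the 9. CD55 (ENSG00000196352, chromosome 1), the membrane-anchored decay-accelerating factor, was at 59.3, 67.2 and 62.1 CPM in control, 85.6, 82.9 and 80.1 CPM with shAKR1B1 and 93.4, 85.0 and 89.6 CPM with shSORD. Every knockdown library was above every control library. CD55 rose 1.32-fold with shAKR1B1 (log2 fold change 0.40, SE 0.0614, adjusted p = 5.76e-05) and 1.42-fold with shSORD (0.51, SE 0.0613, adjusted p = 6.31e-06).

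The members' levels per kilobase of exon spanned 3 orders of magnitude. In control cells C3 stood first at 20.8 ± 0.871 CPM per kilobase (SD, n = 3), followed by C1S at 13.4 ± 0.232, CD55 at 10.6 ± 0.678, C5 at 6.73 ± 0.0608 and C1R at 4.46 ± 0.0832. CFI (0.464 ± 0.047) and C4BPA (0.457 ± 0.115) did not differ beyond their spread, and CFB (0.0974 ± 0.0212) and C4BPB (0.0138 ± 0.00516) were last. With shAKR1B1 C5 led at 33.3 ± 3.27 CPM per kilobase, ahead of C3 at 22 ± 0.873. With shSORD C3 led at 26.7 ± 3.43, followed by C5 at 21.0 ± 3.00, and their ranges overlapped in that group. The order among the 5 abundant genes depends on the length used. Per kilobase of longest coding sequence C1S (42.0) and CD55 (38.1) came before C3 (34.7) in control, and C1R (12.2) before C5 (8.75). By that length CD55 came first with shAKR1B1 (50.2, C5 at 43.2) and with shSORD (54.1, C1S at 53.4 and C3 at 44.6).

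**Figure D2:**
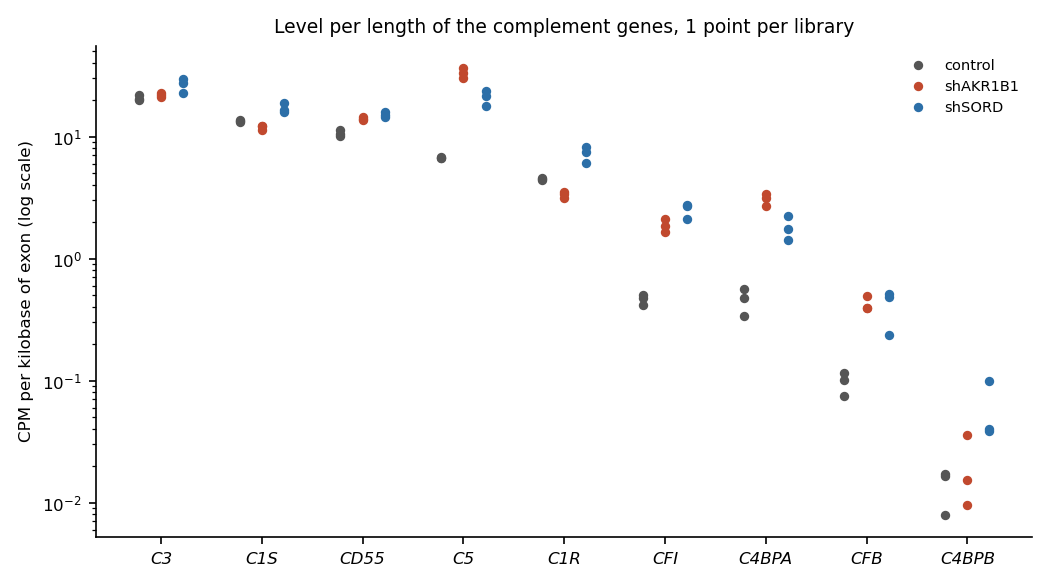
CPM per kilobase of exon on a log axis for the 9 complement genes, in the order of their control means, with 1 point per library and colour by group. C3, C1S, CD55, C5 and C1R lie above 3 CPM per kilobase in every library, C5 moves from below C3, C1S and CD55 in control to the top with shAKR1B1, and C4BPB is lowest in all groups.

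Compared directly, the knockdowns differed in 6 of the 8 tested genes. C5 was 1.58-fold higher with shAKR1B1 than with shSORD (log2 difference 0.66, SE 0.089, adjusted p = 4.46e-05), and C4BPA 1.70-fold higher (0.77, SE 0.156, adjusted p = 0.00165). C1R was 2.16-fold lower with shAKR1B1 (-1.11, SE 0.0958, adjusted p = 5.29e-07), C1S 1.43-fold lower (-0.51, SE 0.0655, adjusted p = 2.67e-05), C3 1.21-fold lower (-0.28, SE 0.0766, adjusted p = 0.012) and CFI 1.34-fold lower (-0.42, SE 0.116, adjusted p = 0.0123). Across all tested genes, 30.7% differed in this comparison, 15.5% higher and 15.1% lower, and the knockdown groups did not overlap for 20% upward and 20.1% downward. CFB (0.05, SE 0.23, adjusted p = 0.887) and CD55 (-0.11, SE 0.0608, adjusted p = 0.197) did not pass. The C3 and CFI calls ended without shAKR1B1 replicate 3 (adjusted p = 0.0557 and 0.0714) or without shSORD replicate 1 (0.074 and 0.0517), and the CFI ranges of the knockdowns met at 10.3 CPM.

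**Figure D3:**
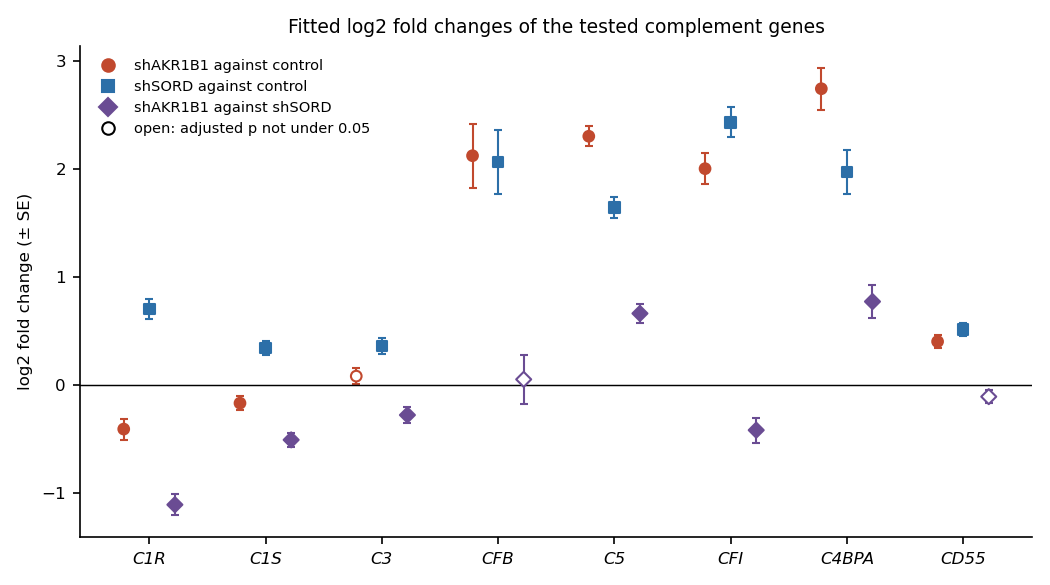
Fitted log2 fold changes of the 8 tested complement genes with their SE for shAKR1B1 against control (circles), shSORD against control (squares) and shAKR1B1 against shSORD (diamonds); open symbols did not pass adjusted p under 0.05. CFB, C5, CFI and C4BPA lie between 1.64 and 2.74 against control, and C1R runs from -0.41 with shAKR1B1 to 0.70 with shSORD.

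The rest of the pathway was described from a list of 57 complement genes by role, the 9 included. Of these, 28 were tested and 29 were below the filter, among them 13 with 0 counts in all libraries. A count of 0 allows up to 3 counts per library, or 0.0697 to 0.0925 CPM (counting error only). The 3 chains of C1q (C1QA, C1QB and C1QC) and the lectin pathway genes MBL2, FCN1, FCN2, FCN3 and COLEC10 were in that group of 13. COLEC11, another collectin gene of the lectin pathway, had 11 to 26 counts in every library and did not pass with shAKR1B1 (log2 fold change 0.28, adjusted p = 0.45) or shSORD (0.44, adjusted p = 0.224). The receptors CR1, C3AR1 and VSIG4 were also at 0. Of the 28 tested genes 15 rose and 5 fell with shAKR1B1 (median 0.49), and 22 rose and 1 fell with shSORD (median 0.71). These counts include the 8 tested members already described. Of the other 20, 10 rose and 3 fell with shAKR1B1 (50% and 15%), and 14 rose and 1 fell with shSORD (70% and 5%). The background shares over the 16916 genes were 27.8% up and 29.6% down for shAKR1B1. For shSORD the background was 27.5% up and 29% down. The list was also chosen with earlier results of these data known, so its shares are a description and not a test. C4A, C8G, CPN1 and C5AR2 were above the filter level of 0.254 CPM in all libraries of a knockdown group but not in all of control, which favours rises for them.

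Soluble regulators held the largest rises. VTN, the vitronectin gene, whose product keeps the membrane attack complex out of membranes, rose 4.64-fold from 12.8 ± 0.689 to 59.3 ± 1.27 CPM with shAKR1B1 and 6.27-fold to 80.2 ± 10.3 CPM with shSORD. CPN1, the catalytic chain of the carboxypeptidase that trims anaphylatoxins, rose 12.6-fold with shAKR1B1 and 3.16-fold with shSORD, from 9 to 15 counts per control library. Its partner chain CPN2 had 0 counts in all libraries. C1RL, a C1r-like protease gene, rose 1.59-fold and 1.64-fold. Clusterin (CLU), which also blocks the membrane attack complex, had the highest CPM of the 57 genes in control (522.9 ± 4.34). It was also the highest per kilobase of exon (79.0), but per kilobase of longest coding sequence CD59 (445.7) came before it (388.2). CLU did not pass with shAKR1B1 (0.11, adjusted p = 0.0855) and rose 1.11-fold with shSORD (adjusted p = 0.0224). The latter call ended without control replicate 1, 2 or 3 or shSORD replicate 2 (adjusted p = 0.0694, 0.0712, 0.0511 and 0.0805). SERPING1, the C1 inhibitor gene, was below the filter with 0 to 2 counts in control and shAKR1B1 libraries and 5 to 10 with shSORD.

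On the membrane, CD46 and CD59 had higher levels per length than CD55 in control. CD46, the cofactor for cleavage of C3b and C4b, rose 1.28-fold with shAKR1B1 (from 244.0 ± 4.54 to 312.4 ± 13.5 CPM, adjusted p = 0.00131) and 1.67-fold with shSORD (406.9 ± 56.1 CPM, adjusted p = 1.86e-06). CD59, which blocks assembly of the membrane attack pore, fell with shAKR1B1 (log2 fold change -0.30, SE 0.0585, adjusted p = 0.000488) and rose with shSORD (0.25, SE 0.0583, adjusted p = 0.00179). It was lower with shAKR1B1 than with shSORD by -0.55 on the log2 scale (adjusted p = 4.36e-06). The ratio of CD59 to CD55 per kilobase was 1.56 ± 0.0973 in control, 0.957 ± 0.0203 with shAKR1B1 and 1.30 ± 0.0884 with shSORD (SD, n = 3), without overlap between the groups. SUSD4, a complement inhibitor gene of low level, rose 1.40-fold with shAKR1B1 (adjusted p = 0.0389) and 1.63-fold with shSORD (adjusted p = 0.00425). The first call ended with DESeq2 (adjusted p = 0.0541) and when control replicate 1, control replicate 2 or replicate 2 of shAKR1B1 was left out (0.0589, 0.169 and 0.152).

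Other activating components moved less evenly. CFD, the factor D protease gene, which cuts factor B, stood at 45.6 ± 4.74 CPM in control and fell with shAKR1B1 to 28.2 ± 1.95 CPM, a log2 fold change of -0.69 (SE 0.147, adjusted p = 0.000954). With shSORD it was at 56.4, 51.4 and 32.8 CPM and did not pass (0.04, adjusted p = 0.835), but without shSORD replicate 3 the value was 0.26 (adjusted p = 0.00797). Terminal components other than C5 were sparse. C8G, a lipocalin-like chain of C8, had 4 to 10 counts in control. It rose with shAKR1B1 (18 to 26 counts, adjusted p = 0.00826) and with shSORD (10 to 35 counts, adjusted p = 0.0134), the latter lost without control replicate 3 or shSORD replicate 2 (0.0639 and 0.0904). C6, C7, C8A, C8B and C9 had at most 3 counts in any library. C4A, at 3 to 10 counts in control and near-identical to C4B, rose with shSORD (log2 fold change 1.35, adjusted p = 0.0162), a call lost without control replicate 2 or shSORD replicate 2 (0.0788 and 0.0738).

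Receptor genes were of low level. The integrin chains ITGAM and ITGAX, which pair with ITGB2 to form complement receptors, rose 1.83-fold and 1.41-fold with shAKR1B1 and 2.47-fold and 2.29-fold with shSORD. ITGB2 itself, a leukocyte integrin chain, fell, from 5.99 ± 0.873 CPM to 2.5 ± 0.327 with shAKR1B1 (log2 fold change -1.26, adjusted p = 3.55e-06) and 1.72 ± 0.256 with shSORD (-1.79, adjusted p = 1.92e-07). The summed level of the 10 leukocyte and macrophage markers was 8.27 to 9.91 CPM in control, 5.34 to 5.97 with shAKR1B1 and 3.24 to 4.64 with shSORD, and its part in the receptor values was not tested. CD14 made up most of that sum (8.81, 4.96 and 3.39 CPM on average) and fell in both comparisons, whereas LYZ, the other marker tested, rose in both from 1 to 2 counts per control library. LYZ passed the expression filter through the knockdown libraries, which favours rises for it. C5AR1, the C5a receptor gene, stood at 2.31 ± 0.0244 CPM in control, did not pass with shAKR1B1 (0.26, adjusted p = 0.0823) and rose 1.43-fold with shSORD (adjusted p = 0.00196).

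**Figure D4:**
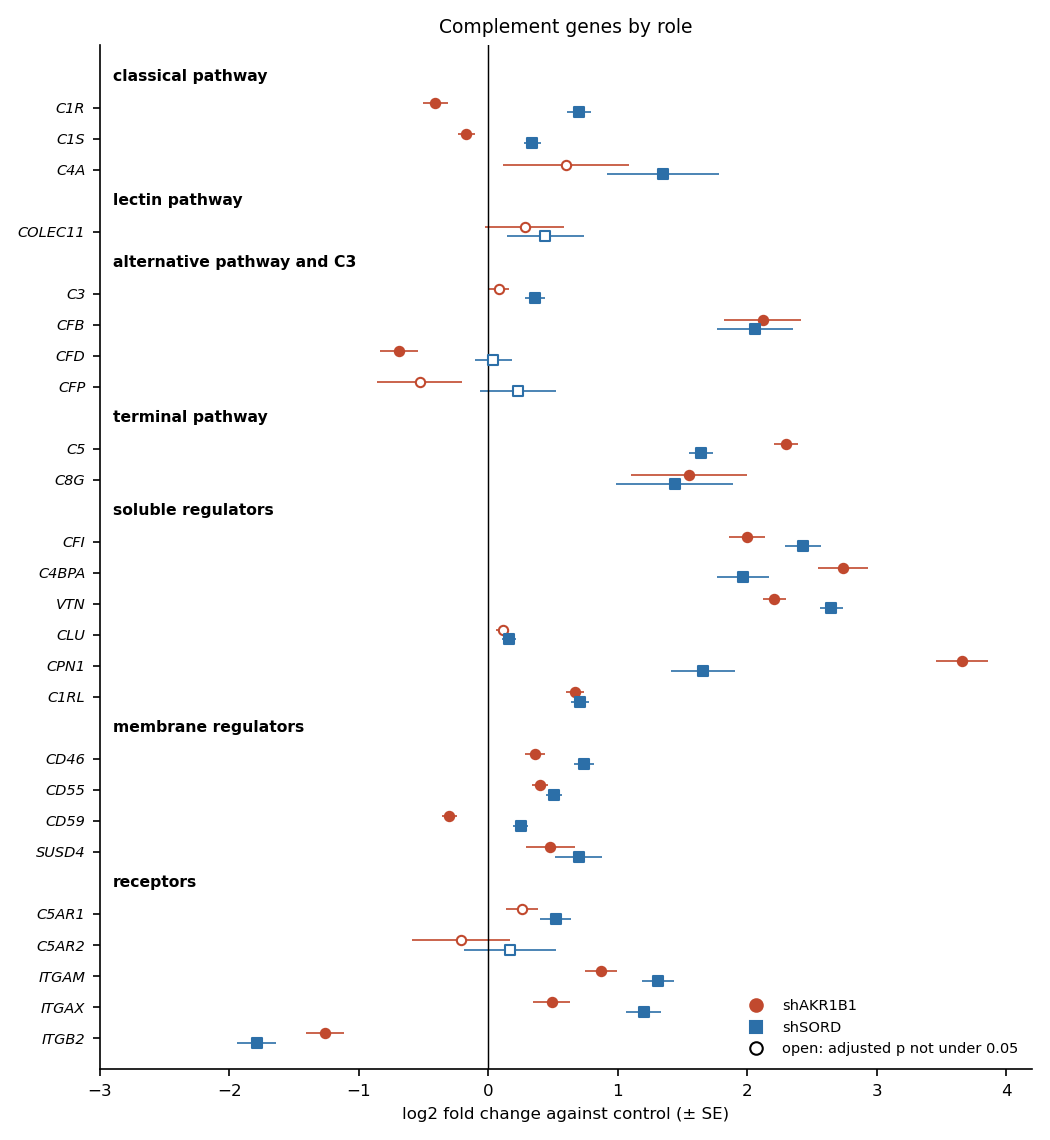
Fitted log2 fold changes against control with their SE for 25 complement genes, grouped by role (circles shAKR1B1, squares shSORD, open symbols not past adjusted p under 0.05). Soluble regulators reach 3.66 (CPN1 with shAKR1B1), while the classical proteases, CFD, CD59 and ITGB2 have values below 0 with shAKR1B1.

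In the liver, complement is made with other plasma proteins, and genes for those were measured beside it. Of 20 acute-phase genes 9 were tested, and 7 rose and 0 fell with each knockdown (median log2 fold change 2.26 with shAKR1B1 and 1.24 with shSORD). Over all tested genes, 27.8% rose and 29.6% fell with shAKR1B1, and 27.5% rose and 29% fell with shSORD. The fibrinogen chain genes FGB, FGG and FGA rose 11.7-fold, 8.81-fold and 7.56-fold with shAKR1B1 and 7.98-fold, 4.93-fold and 4.21-fold with shSORD. Of 12 hepatocyte markers, HNF4A included, 6 were tested, and 6 rose with shAKR1B1 and 4 with shSORD. Of these, ALB and CYP2E1 were below the filter level in every control library. AHSG, with 8 to 12 counts per control library, was not above it in all of them. Nor was the acute-phase gene HPX, with 9 to 16 counts per control library. ALB, CYP2E1, AHSG and HPX passed through the knockdown libraries, which favours rises for them. The summed level of the 12 markers was 48.3 to 50.4 CPM in control, 146.6 to 149.6 CPM with shAKR1B1 and 107.8 to 124.8 CPM with shSORD. ALB, the albumin gene, had 1 count in every control replicate, 16 to 22 counts under shAKR1B1 and 1 to 5 under shSORD.

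Genes for signalling known to act on complement transcription were also listed. Of 25 genes of IL-6, interferon and NF-kappaB signalling and hepatocyte factors, 23 were tested. With shAKR1B1 5 rose and 10 fell (median -0.21), and with shSORD 7 rose and 7 fell (median -0.01). These are 21.7% up and 43.5% down in the tested list with shAKR1B1, against a background over the 16916 genes of 27.8% and 29.6%. For shSORD the list has 30.4% each way, against a background of 27.5% and 29%. HNF4A, a hepatocyte transcription factor gene, rose from 34.6 ± 0.819 CPM in control to 94.1 ± 2.57 with shAKR1B1 (2.72-fold) and 86.5 ± 4.05 with shSORD (2.5-fold). IL1R1, an interleukin-1 receptor gene, rose 1.60-fold and 1.86-fold. RELB, an NF-kappaB subunit gene, and LIFR, a cytokine receptor gene, fell by 0.77 and 0.56 on the log2 scale with shAKR1B1 and by 0.67 and 0.62 with shSORD. IL6ST, the shared signal chain of the IL-6 receptor family, fell by 0.72 with shAKR1B1 and was at 0.15 with shSORD (adjusted p = 0.196). Without shSORD replicate 2 that value was 0.28 (adjusted p = 0.00026). IL6R, the IL-6 receptor gene, fell by 0.38 with shAKR1B1 and by 0.51 with shSORD. The part of any of these in the complement values was not tested.

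The stretches before the transcription starts were read for the genes that rose in each comparison with control, since those genes moved together. RefSeq windows on GRCh38.p14 matched 7 of the 9 symbols (not C3 or C1S), with 11 windows in all. The 250 bases before each start were searched on both strands for CAAAGTCCA (HNF4), TTNNGNAA (C/EBP) and TTCNNNGAA (STAT). The other motifs searched were the TATA box, spelled TATAAA, and an NF-kappaB and an interferon response motif of 10 letters each, and matches of different motifs may overlap. TTNNGNAA was at 2 places each in the windows of C4BPA and CFI and in neither the C5, the CFB nor the CD55 windows. It was also in both windows of C1R, which fell with shAKR1B1, and in all 3 windows of C4BPB, which was not tested. Windows 2 and 3 of C4BPB overlap and share matches. TTNNGNAA is common, in 33.2% of all 35114 windows. The C4BPA window (chr1:207103983-207104232, plus strand), of the gene with the largest fold among the 8 tested, is given 5′ to 3′ with its TTNNGNAA matches in capitals. None of its bases is annotated as exon in GENCODE 29.
C4BPA: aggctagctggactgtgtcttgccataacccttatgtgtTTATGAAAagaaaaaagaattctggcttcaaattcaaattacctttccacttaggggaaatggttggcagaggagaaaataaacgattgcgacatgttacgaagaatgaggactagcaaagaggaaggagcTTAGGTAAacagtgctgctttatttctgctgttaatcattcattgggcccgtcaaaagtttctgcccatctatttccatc

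The CFB window held different matches. A STAT match lay 92 bases and a TATA box 30 bases before the start, beside an interferon response match 140 bases before it. TTCNNNGAA was also in a window of C1R, which fell with shAKR1B1, and in a window of C4BPB, which was not tested. It occurs in 6.57%, TATAAA in 10.7% and the interferon response motif in 3.02% of all windows. The STAT match (chr6:31945991-31946020) and the TATA box (chr6:31946053-31946082), both on the plus strand, are shown with the match in capitals, and both stretches lie in annotated exons of transcripts that overlap the CFB start.
CFB, STAT match: cccgcttggatgTTCCGGGAAagtgatgtg
CFB, TATA box: gaacacagattgTATAAAaggctgggggct

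No window of the 7 genes held CAAAGTCCA (0.325% of all windows) or the NF-kappaB motif (0.527%). A match says only that these letters are present, and the binding of a factor was not measured.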

How the data were processed

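The deposited table holds raw read counts per gene. Per the submitters' processing notes, the authors used cutadapt 1.9.1, STAR 2.5.2b, featureCounts 1.5.1 and DESeq2 1.12.3 with GRCh37. Per the labels' protocols, RNA was extracted with Qiazol and miRNeasy and libraries were stranded mRNA libraries. How reads in overlapping genes were counted is not given in the sources used here.

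From the deposited counts, genes were filtered with filterByExpr by group and scaled by TMM. They were then tested with edgeR 4.0.16 (R 4.3.3, limma 3.58.1) by quasi-likelihood F tests with 1 mean per group over all 9 libraries. Adjusted p-values are Benjamini-Hochberg values over 16916 genes, a gene was called at 0.05, and fold changes carry a prior count of 0.125. The SE was taken as the absolute log2 fold change over the root of its F statistic. The fit was tested on simulated data. The common biological coefficient of variation was 6.59%. Symbols matched 51996 of 57905 IDs, and 2 genes of the lists matched none. Levels per kilobase use exon unions of GENCODE 29, which is on another build, so only lengths and overlaps were taken from it.

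The complement genes and all lists were chosen with earlier results of these data known. Named genes were the 9 members, both targets, every other tested complement gene averaging 50 or more counts over the libraries or called with at least a 2-fold change, and the 3 largest rises and 3 largest falls per knockdown among called acute-phase and signalling genes of that count. Protein stretches, part of the same rule, are not shown, and some genes and motifs that it names are not reported here, though counts over lists include them. Alternatives were other scalings, filters, DESeq2 1.42.0, fits of only the groups compared, a replicate block, leaving out each library, and coding length.

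Replicate numbers were checked by correlating same-numbered libraries' deviations from their group means. Correlations were -0.028, -0.015 and -0.021 between control and shAKR1B1 and 0.031, -0.025 and 0.031 between control and shSORD, so those numbers do not pair libraries. Between shAKR1B1 and shSORD they were 0.102, 0.193 and 0.144, all above 0.1, which was taken as pairing from the data alone. Replicates of a group differed by more than counting noise (chi-square per degree of freedom 2.425 to 27.473).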

Additional observations from a re-analysis of the deposited data

How the results depend on the processing

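Against control, the calls of C1R, CFB, C5, CFI, C4BPA and CD55 held in all 17 alternatives for each knockdown, as did those of C1S and C3 with shSORD. With shAKR1B1 the number of the 9 genes that fell was 1 in place of 2 with DESeq2 size factors, with upper-quartile scaling, with the DESeq2 Wald test and with the stricter filter, each time by loss of C1S. Leaving out 1 library gave 1 to 2. In the direct comparison the number lower with shAKR1B1 was 2 to 4 when 1 library was left out. With shAKR1B1 C5AR1 passed under upper-quartile scaling and the stricter filter (adjusted p = 0.039 and 0.0429). CLU passed with shAKR1B1 in a fit of only the 2 groups compared (0.00357), under upper-quartile scaling (0.0164), with the stricter filter (0.0283) and without shSORD replicate 2 or 3 (0.0298 and 0.0285). Total counts as library size moved the control means of C5, C1R and C1S to 42.9, 25.6 and 84.6 CPM. Low counts limit CFB, C4BPA, CPN1, C8G, C4A and, most of all, C4BPB.

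With a replicate block, 5 of the 9 genes rose and 2 fell with shAKR1B1, 8 rose and 0 fell with shSORD, and 2 were higher and 4 lower in the direct comparison, as without it. The fit of only the 2 groups compared with the block, chosen after seeing the data, gave CLU an adjusted p of 0.00565 with shAKR1B1, whereas with the block in the fit of all groups it did not pass.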
